A study of Mus musculus with 2 samples.

Results

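The Schlafen family was followed across the cells of the mouse temporomandibular joint (TMJ), the jaw joint, as Slfn1, Slfn2, Slfn3, Slfn4, Slfn5, Slfn8 and Slfn9, 7 of the 32285 genes in the count tables. Each was found by its exact symbol, and the members were chosen by their UMI levels per cell class in these same 2 libraries, with earlier results known, so every difference below is a description without a test. Single-cell RNA sequencing (10x Genomics, 3′ ends, unique molecular identifiers or UMIs) was done on 2 libraries, each from the TMJ and surrounding tissue of wild-type female C57BL/6 mice, whose age the labels give as 8 to 10 weeks and the methods as 8 weeks at injection, with collection 3 weeks later. The PBS library came from joints injected with phosphate-buffered saline, and the CFA library from joints injected with 10 µL of complete Freund's adjuvant at 5 mg/mL, an oil emulsion with killed mycobacteria that inflames a joint. Cells carrying CD45, the surface marker of blood cells other than red cells, had been reduced with magnetic beads before loading, so the number of immune cells in a library is set in part by that step. Tissue was collected with n = 3 and digested per condition, so that animals cannot be told apart within a library. With 1 library per condition there is no replicate error, and every interval is a 95% interval for counting error only.

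Schlafen proteins form a rodent-expanded family first found in developing thymocytes, and their name is German for sleep, after the slowed growth of T cells that express the founding member. The short members consist of little more than the shared Schlafen core, whereas the long members add a helicase-like part. Several are induced by interferons and by bacterial products in macrophages, Slfn2 is required for the quiescence and survival of T cells and monocytes, Slfn4 is known from myeloid cells, and long members of the family have been tied to the control of tRNA and of viral growth.

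A barcode was counted as a cell with at least 500 genes, at most 10% mitochondrial and at most 1% hemoglobin UMIs. That left 2667 of 7671 barcodes in PBS, with a median of 7022 UMIs, and 4014 of 5709 in CFA, with a median of 6509.5. The libraries shared 10 barcodes in all and 2 among the kept cells. The cells fell into 35 clusters, and 31 were named from fixed marker genes, with "-like" marking that a name rests on markers. Endothelial-like cells were the largest class (750 in PBS and 1044 in CFA), and 10 classes had at least 50 cells in each library. Macrophage-like (19 and 306 cells), osteoclast-like (1 and 275) and monocyte or progenitor-like cells (37 and 133) had fewer than 50 in PBS, so their levels are given and no ratio is read from them. The monocyte or progenitor-like class was the cluster led by Prtn3, Ctsg, Mpo and Elane. It was named from 5 of 7 markers of granulocyte-monocyte progenitors, and no cluster was named from monocyte markers. Ly6c2, F13a1 and Ccr2 were also among its leading genes. Levels are in CPM, the usual counts-per-million scale on which a gene's UMIs are divided by the UMIs of all genes in the class. A UMI marks 1 captured 3′ end and is not scaled by gene length, so levels are compared between cells for a gene and not between genes.

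All 7 members lie in 1 cluster of genes on chromosome 11 (GRCm38, 82951349 to 83215154), which spans 263.8 kb. From its first base the order is Slfn5 on the plus strand, Slfn9 and Slfn8 on the minus strand, then Slfn2, Slfn1, Slfn4 and Slfn3 on the plus strand. The longest annotated coding sequences place Slfn1 and Slfn2 among the short members, with 337 and 378 codons. Slfn4 and Slfn3 are intermediate, with 602 and 640 codons. Slfn5, Slfn8 and Slfn9 are long, with 884, 910 and 910. Paralogs can share reads: of the 50-base stretches in the last 1000 bases of the annotated transcripts, 22.0% for Slfn8, 18.8% for Slfn9 and 16.4% for Slfn3 also occur in another Schlafen transcript, against 7.26% for Slfn2, 1.79% for Slfn4, 1.16% for Slfn1 and 0% for Slfn5. The pseudogene Slfn10-ps, which is not a row of the count tables, holds most of the stretches that Slfn8 and Slfn9 share, so the split of reads among these genes is uncertain.

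**Figure D1:**
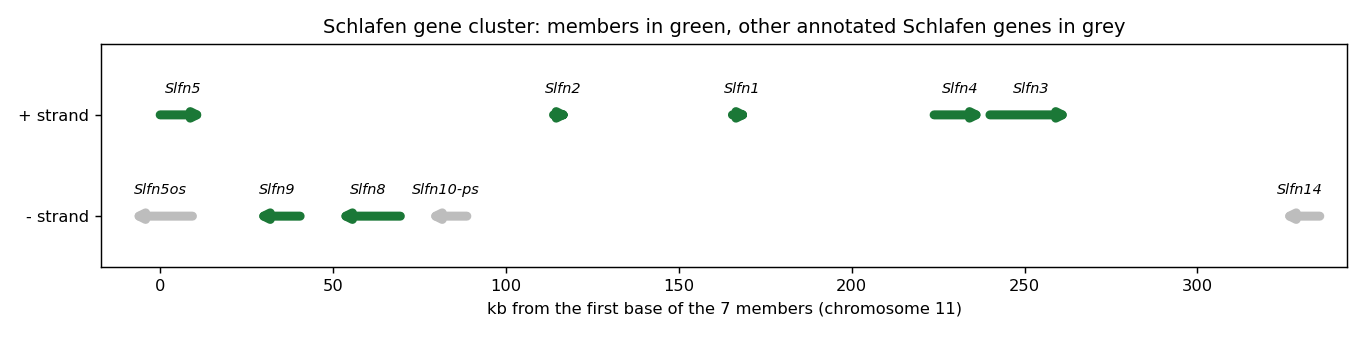
The Schlafen gene cluster drawn to scale, with distance in kb from the first base of the cluster on the horizontal axis and arrows pointing in the direction of transcription (members green, other annotated Schlafen genes grey). Slfn9 and Slfn8 face left, and the other 5 members face right.

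The sequences just before the transcription starts were searched for the core of the interferon-stimulated response element, GAAANNGAA, and for the gamma-activated sequence, TTCNNNGAA, which are the sites that interferon-activated factors bind, on both strands of 300-base RefSeq windows (GRCm38.p6) from 250 bases before to 50 bases after a start. The 7 members matched the promoter table. GAAANNGAA was present in the windows of the 3 long members, Slfn5, Slfn9 and Slfn8, and in none of the windows of Slfn1, Slfn2, Slfn3 and Slfn4, whereas 8.56% of all 32851 promoter windows held it. TTCNNNGAA was in none of the 7 members' windows and in 8.30% of all. Slfn5 had 2 matches, the first at position -155 from the RefSeq start, which lies inside the GENCODE gene model that begins at 82951349. Slfn9 had 1 at position -44 and Slfn8 had 1 at position -47 (-135 from its second RefSeq start), with the same letters, TTCGTTTTC, on the gene's own strand. A match is a run of letters and not evidence of binding. The stretch before the start is shown for the 3 long members, whose windows hold the match, and for Slfn2, which showed the highest ratio in fibroblast-like cells with no match. Capitals mark GAAANNGAA or its reverse complement, all are written 5′ to 3′ on the gene's strand, and positions are chr11:82951852-82951984 (plus) for Slfn5, cut where an annotated Slfn5 exon begins, chr11:82991831-82992080 (minus) for Slfn9, chr11:83020811-83021060 (minus) for Slfn8 and chr11:83064862-83065111 (plus) for Slfn2.
Slfn5: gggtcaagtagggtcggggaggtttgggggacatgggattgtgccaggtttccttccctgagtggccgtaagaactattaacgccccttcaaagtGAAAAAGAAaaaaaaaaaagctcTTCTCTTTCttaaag
Slfn9: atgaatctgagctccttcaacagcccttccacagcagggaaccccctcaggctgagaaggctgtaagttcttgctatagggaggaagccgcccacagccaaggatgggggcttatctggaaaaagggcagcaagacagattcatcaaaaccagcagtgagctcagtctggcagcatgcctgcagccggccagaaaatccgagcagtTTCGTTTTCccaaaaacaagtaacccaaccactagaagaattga
Slfn8: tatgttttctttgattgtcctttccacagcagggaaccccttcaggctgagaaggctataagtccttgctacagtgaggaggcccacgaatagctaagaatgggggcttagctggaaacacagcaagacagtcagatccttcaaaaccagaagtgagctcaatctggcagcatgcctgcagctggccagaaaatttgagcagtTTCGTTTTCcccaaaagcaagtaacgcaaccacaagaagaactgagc
Slfn2: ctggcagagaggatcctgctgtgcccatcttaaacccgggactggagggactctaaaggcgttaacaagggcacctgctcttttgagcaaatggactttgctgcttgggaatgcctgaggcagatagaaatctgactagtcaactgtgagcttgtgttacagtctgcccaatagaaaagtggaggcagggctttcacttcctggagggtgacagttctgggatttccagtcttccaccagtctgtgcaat
The Slfn8 and Slfn9 stretches were the most alike of all pairs of members, with 26.7% of 8-base words in common and a longest shared run of 20 bases.

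The members divided by where their UMIs lay. Orders of classes are given among those with at least 50 cells in the library. Slfn5, a long member found mainly in the nucleus, was an endothelial transcript: endothelial-like cells held 80.9% of its UMIs in PBS and 61.9% in CFA. Its level there was 1021 CPM in PBS (interval 995 to 1047) and 1033 in CFA (1009 to 1058). Mural-like cells, the smooth muscle and pericyte coat of vessels, followed in PBS at 197 CPM and fibroblast-like cells at 107, and the intervals of these 3 classes did not overlap. In CFA, again among classes with at least 50 cells, the next were macrophage-like cells at 209 CPM, then fibroblast-like (158), mural-like (149.7), monocyte or progenitor-like (132) and osteoclast-like cells (119.5), each of these last 4 overlapping its neighbour. A Slfn5 UMI was seen in 92.3% of endothelial-like cells in PBS and 90.1% in CFA, at median depths of 5405 and 4420.5 UMIs. In chondrocyte-like cells it was seen in 5.95% and 5.88% although these were deeper, at 16335 and 16983 UMIs. With each cell thinned to 1000 UMIs the endothelial shares were 60.1% and 57.2% and the chondrocyte shares 1.2% and 1.18%.

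Slfn3, an intermediate member, was the other endothelial gene, with 77.9% of its UMIs in endothelial-like cells in PBS and 78.3% in CFA. Its level there was 45.4 CPM in PBS and 71.9 in CFA. No other class with at least 50 cells overlapped it in either library, the next being neutrophil-like cells at 17.3 and 11.2 CPM, and chondrocyte-like cells had no UMI of it in either library.

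Slfn1 and Slfn4 were transcripts of neutrophil-like cells. Slfn4 had 74.5% of its UMIs in them in PBS and 67.1% in CFA, at 253 and 405 CPM, and Slfn1 had 58.7% and 43.9%, at 121 and 239.8 CPM. In CFA the Slfn1 level stepped down from neutrophil-like to monocyte or progenitor-like (119 CPM), macrophage-like (87.2) and osteoclast-like cells (20.5), with no overlap between neighbours. Slfn4 stood lower outside neutrophil-like cells in the same library, at 41.9 CPM in monocyte or progenitor-like and 38.9 in macrophage-like cells, which overlapped each other, and at 15.9 in osteoclast-like cells.

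Slfn2, the short member tied to quiescence, was highest in myeloid cells among the classes with at least 50 cells. Of its PBS UMIs, 27.5% lay in the many endothelial-like cells, 19.6% in monocyte or progenitor-like and 16.7% in neutrophil-like cells. In CFA its level was 394 CPM in neutrophil-like, 391 in macrophage-like and 385 in monocyte or progenitor-like cells, which overlapped, and 285 in osteoclast-like cells, which lay below them. Erythroid-like (60.1 CPM), endothelial-like (52.1) and B cell-like cells (45.7) came next in CFA, each overlapping its neighbour. In PBS neutrophil-like cells (210.3 CPM), B cell-like cells (112) and endothelial-like cells (44.7) followed in that order without overlap among the classes with at least 50 cells. Of its CFA UMIs, 36.7% lay in osteoclast-like and 23.1% in macrophage-like cells, the classes that PBS held in 1 and 19 cells. Over all kept cells Slfn2 therefore stood at 34.8 CPM in PBS and 163 in CFA, and that difference mixes the makeup of the libraries with the level within classes.

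Slfn8 and Slfn9, neighbouring long genes of the same coding length, were lower and wider. Among classes with at least 50 cells, Slfn8 was highest in PBS in B cell-like cells (23.2 CPM), above fibroblast-like (9.41) and neutrophil-like cells (9.32), and in CFA in macrophage-like cells (61.9 CPM), above fibroblast-like cells (42.7). Slfn9 did not single out a class: in CFA it lay between 9.71 and 20.7 CPM in 7 classes, and each overlapped the next.

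**Figure D2:**
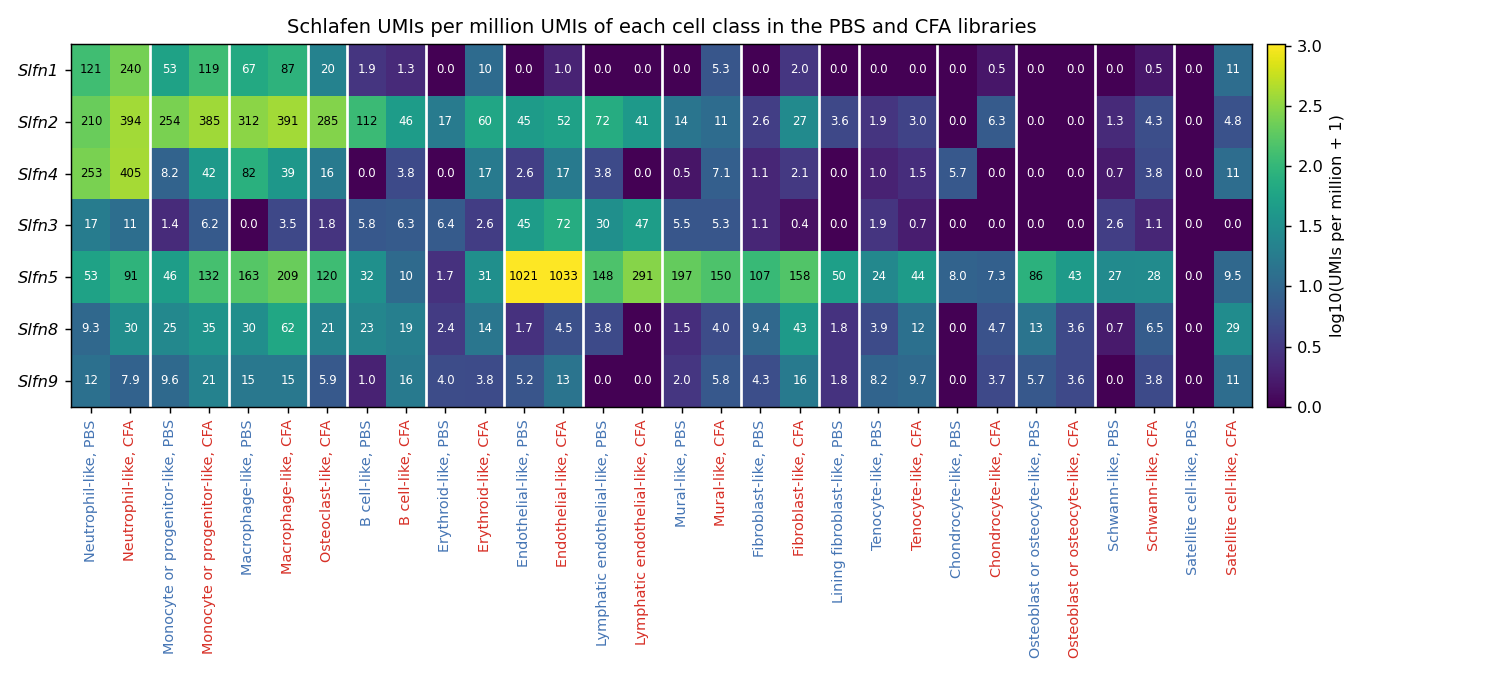
Level of each member (rows) in each cell class with at least 10 cells (columns, PBS labels blue and CFA labels red), with colour for log10 of CPM plus 1 and the CPM printed in each cell. Slfn5 and Slfn3 are highest in the endothelial-like columns, and Slfn1 and Slfn4 in the neutrophil-like columns.

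Across the 23 points that are a named class in 1 library with at least 50 cells, Pearson's r of log2(CPM + 10) described which members shared a pattern. The points share libraries and differ in depth, so these values carry no p. Slfn1 and Slfn4 were the closest pair (r = 0.93), then Slfn1 and Slfn2 (0.82), Slfn2 and Slfn4 (0.73), Slfn3 and Slfn5 (0.69) and Slfn8 and Slfn9 (0.68), whereas Slfn3 and Slfn8 stood at -0.14. Of 12876 genes, those most like Slfn1 were Csf3r, the granulocyte colony-stimulating factor receptor (0.982), Sirpb1b (0.975) and Cd300lf, an inhibitory myeloid receptor (0.972). For Slfn4 they were Hdc, which makes histamine (0.977), Siglece (0.973) and Treml4 (0.968), and for Slfn2 Skap2 (0.955), Hcls1 (0.954) and Lcp1, a leukocyte actin-bundling protein (0.951). For Slfn5 they were Nrp1, a co-receptor for vascular endothelial growth factor (0.928), Adam15 (0.910) and Grk5 (0.903), and for Slfn3 Exoc3l2 (0.925), Lipe (0.921) and Sele, the endothelial selectin (0.918). Slfn8 was most like Zbp1, a sensor of Z-form nucleic acids (0.879), Cers6 (0.840) and Samhd1, a nucleotide hydrolase that limits viruses (0.805). Slfn9 was most like Irf2bp2 (0.778), Samhd1 (0.734) and Zbp1 (0.728). Zbp1 and Samhd1 were thus in both lists of 3, but with 1 or 50 CPM added in place of 10 these lists shared no gene.

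The PBS and CFA libraries were then compared within each class. A member was counted if it had at least 20 UMIs over both libraries in the class, and called if its CFA level was at least 2-fold higher or lower, and the same rule over all genes of the class gave the background share. In fibroblast-like cells 3 of 4 counted members were at least 2-fold higher in CFA, where 8.54% of all genes were, and 0 were at least 2-fold lower, where 5.06% were. In endothelial-like cells it was 3 of 6 against a background of 5.17%, with 0 lower (5.85%). In neutrophil-like cells it was 1 of 7 (8.97%) with 0 lower (13.8%), and in tenocyte-like cells, which make tendon and ligament, 1 of 3 (4.15%) with 0 lower (6.01%). The members' median ratio was 4.15 in fibroblast-like and 2.09 in endothelial-like cells, where the median over all genes was 1.01 and 1.0. None of the counted members was called in mural-like cells (0 of 3; background 3.69% higher and 5.14% lower), Schwann-like cells (0 of 1; 8.32% and 2.99%) or chondrocyte-like cells (0 of 1; 4.59% and 7.66%).

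**Figure D3:**
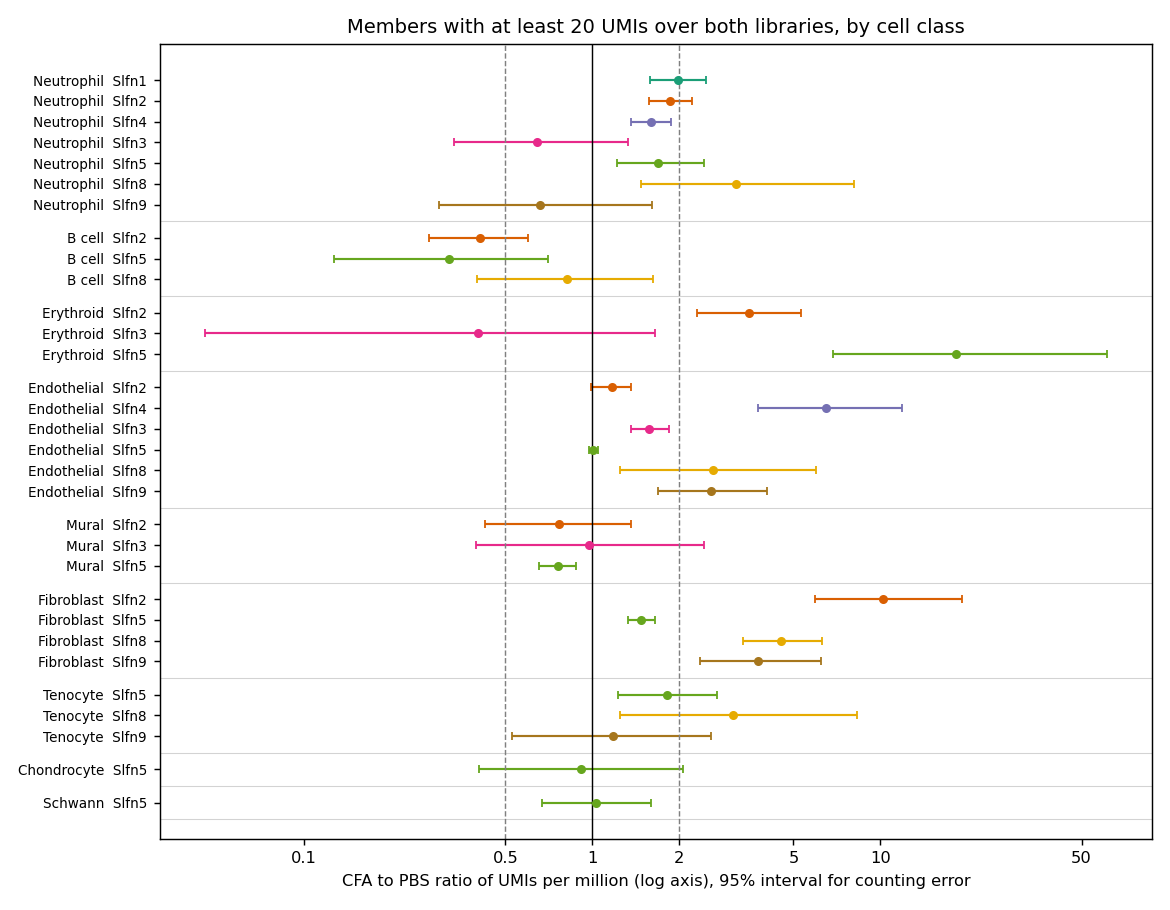
Ratio of the CFA to the PBS level (horizontal log axis) for each counted member in each class, with bars for the 95% counting interval and dashed lines at 0.5 and 2. Slfn2, Slfn8 and Slfn9 in fibroblast-like cells and Slfn4 in endothelial-like cells lie past the right line with their intervals. So do Slfn2 and Slfn5 in erythroid-like cells. Slfn5 in endothelial-like cells sits at 1.01.

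In fibroblast-like cells (471 in PBS and 372 in CFA, at median depths of 11293 and 12856 UMIs) the largest ratio was that of Slfn2. It had 14 UMIs in 10 PBS cells and 151 in 81 CFA cells, or 2.63 CPM (1.44 to 4.42) and 27.0 CPM (22.8 to 31.6), a ratio of 10.2 (5.92 to 19.2). The intervals of the levels did not overlap. A Slfn2 UMI was seen in 2.12% and 21.8% of the cells, against 0.325% and 1.86% of Schwann-like cells at 3832 and 3433 UMIs. Thinned to 1000 UMIs the fibroblast shares were 0.641% (0.132 to 1.86) and 2.21% (0.959 to 4.31), which overlapped, being close to 1 UMI in few cells.

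Slfn8 stood at 9.41 CPM (50 UMIs in 42 cells) in PBS and 42.7 CPM (239 UMIs in 130 cells) in CFA, a ratio of 4.54 (3.33 to 6.29). The share of cells with a UMI was 8.92% and 34.9%, and 0.641% (0.132 to 1.86) and 3.59% (1.93 to 6.06) after thinning. Both the levels and the thinned shares were higher in CFA without overlap. Slfn9 stood at 4.33 CPM (23 UMIs) and 16.3 CPM (91 UMIs), a ratio of 3.76 (2.36 to 6.22), in 4.03% and 15.9% of the cells. Slfn5, the remaining counted member, was higher in CFA by less: 107 CPM (97.9 to 116) and 158 (147 to 168), a ratio of 1.48 (1.33 to 1.65). Slfn1, Slfn3 and Slfn4 were under 20 UMIs in fibroblast-like cells, with 0 and 11, 6 and 2, and 6 and 12 UMIs in PBS and CFA, and all 6 of the Slfn4 UMIs in PBS came from 1 cell.

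The fibroblast-like class held 3 clusters. The cluster led by Pi16, a marker of adventitial fibroblasts (137 and 167 cells), had Slfn2 at 4.35 CPM in PBS and 36.3 in CFA, Slfn8 at 9.24 and 49.1, Slfn9 at 4.35 and 14.6, and Slfn5 at 108 and 169. The cluster led by Inmt and Apod (208 and 147 cells) had Slfn2 at 2.21 and 10.8 CPM, Slfn8 at 14.4 and 38.9, Slfn9 at 6.08 and 15.1, and Slfn5 at 162 and 206. The cluster led by Angptl1 and Cilp (126 and 58 cells) had Slfn2 at 1.2 and 18.4 CPM, Slfn8 at 4.20 and 25.9, and Slfn9 at 2.40 and 23.8. Slfn2, Slfn8 and Slfn9 were higher in CFA in each of the 3 clusters, but Slfn2 had 4 and 15 UMIs in the Inmt and 2 and 17 in the Angptl1 cluster, under the minimum of 20. Slfn5 was higher in the Pi16 (ratio 1.57, 1.33 to 1.85) and Inmt clusters (1.27, 1.08 to 1.5) and stood at 44.5 and 43.2 CPM in the Angptl1 cluster (0.972, 0.645 to 1.45). The CFA share of the Pi16 cluster was larger, and the class values include that makeup.

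Markers of other cells moved in the fibroblast-like class too. The 8 macrophage markers summed to 2.82 CPM in PBS, with Adgre1, Ms4a7 and Cd163 at 0, and to 43.4 in CFA, with Cd163 at 0. The 7 monocyte markers summed to 27.9 and 502 CPM, of which Plac8 alone made 16.2 and 444. The 11 neutrophil markers went the other way, at 524 and 159 CPM, as did the 6 erythroid markers, at 286 and 98.8 CPM. If the C1qa, C1qb and C1qc UMIs in CFA fibroblast-like cells had come with macrophage RNA in the proportions of macrophage-like cells, that RNA would have brought 2.53 CPM of Slfn2, 0.401 of Slfn8 and 0.0987 of Slfn9. The measured levels were 27.0, 42.7 and 16.3 CPM. Without the cells that held at least 2 macrophage or 3 neutrophil markers (13 in PBS and 69 in CFA), the ratios were 10.1 for Slfn2, 4.48 for Slfn8 and 3.09 for Slfn9. RNA of monocyte or progenitor-like and osteoclast-like cells, with Slfn2 at 385 and 285 CPM in CFA, is not set beside these levels here. The part of carried RNA in the levels and ratios was not tested.

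Endothelial-like cells had the highest Slfn5 level and it was alike in both libraries, with a ratio of 1.01 (0.978 to 1.05). Of the other counted members, Slfn4 had the largest ratio: 15 UMIs in 9 cells in PBS and 115 in 56 cells in CFA, or 2.58 CPM (1.44 to 4.25) and 16.7 (13.8 to 20), a ratio of 6.47 (3.77 to 11.9). Slfn4 was seen in 1.2% and 5.36% of the cells, and in 0.135% and 1.25% after thinning, against 0.325% and 1.59% of Schwann-like cells unthinned. Slfn9 stood at 5.16 CPM (30 UMIs) and 13.4 (92 UMIs), a ratio of 2.59 (1.70 to 4.05). Slfn8 had few UMIs, 10 and 31, at 1.72 and 4.50 CPM, and its ratio of 2.62 has an interval from 1.25 to 5.99. Its thinned shares were 0.135% and 0.0961%, 1 cell in each library. With no limit on hemoglobin the Slfn8 ratio was 1.96, the alternative that put it under 2.

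Slfn3 was higher in CFA by less than the call, 45.4 CPM (40.1 to 51.2) against 71.9 (65.7 to 78.5), a ratio of 1.58 (1.36 to 1.85), and its thinned share was 4.74% (3.32 to 6.53) and 9.13% (7.45 to 11), without overlap. Slfn2 stood at 44.7 and 52.1 CPM, a ratio of 1.17 whose interval (0.991 to 1.37) holds 1. Slfn1 had no UMI in PBS, which allows up to 0.516 CPM, and 7 in CFA.

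The vessel segments differed. Capillary-like cells (510 and 679), the exchange vessels, had Slfn5 at 1268 CPM in PBS and 1546 in CFA, a ratio of 1.22 (1.17 to 1.27), whereas arterial-like cells had 753 and 742 (0.985, 0.894 to 1.09) and venular-like cells 643 and 629 (0.978, 0.902 to 1.06). Within the 3 capillary clusters the Slfn5 ratio was 1.42 in the cluster led by Hdac9 and Timp4, at 1637 and 2329 CPM, 1.27 in the one led by Timp4 and Gpihbp1, at 972 and 1234, and 1.02 in the one led by Ccdc85a, at 1359.9 and 1387. Slfn5 was itself among the 10 leading genes of the first, though the Schlafen genes were left out of the clustering. The venular-like share of the class was larger in CFA (190 of 1044 cells against 103 of 750), so the class ratio of 1.01 joins segments with different ratios.

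Slfn3 was highest in capillary-like cells too, at 58.7 and 111 CPM (1.89, 1.58 to 2.27), with arterial-like cells at 27.9 and 53.2 (1.91, 1.22 to 3.06) and venular-like cells, the segment where leukocytes leave the blood, at 27.5 and 39.6 (1.44, 0.991 to 2.13). Slfn4 showed the opposite order. It stood at 9.17 and 28.3 CPM in venular-like cells (13 and 80 UMIs, ratio 3.08, 1.70 to 6.04). It was at 0.929 and 14.6 in arterial-like cells (1 and 17 UMIs) and 0.301 and 6.22 in capillary-like cells (1 and 18 UMIs). Over all genes, venular-like cells held 1417368 of the class's 5817538 UMIs in PBS and 2830792 of 6889182 in CFA. The class ratio of 6.47 for Slfn4 includes that makeup. Slfn9 was at 9.17 and 18.0 CPM in venular-like, 3.61 and 11.8 in capillary-like and 4.64 and 6.00 in arterial-like cells. Its arterial-like ratio was 1.29 (0.353 to 5.16). Slfn8 had 2 and 20 UMIs in venular-like, 6 and 10 in capillary-like and 2 and 1 in arterial-like cells. The class ratios of Slfn8 and Slfn9 include the makeup of segments too. Slfn2 stood at 58.6 and 59.7 CPM in venular-like, 41.8 and 43.7 in arterial-like and 39.7 and 48.1 in capillary-like cells, with the interval of each segment's ratio holding 1. The capillary clusters differed. The Slfn2 ratio was 1.91 (1.34 to 2.73) in the one led by Timp4 and Gpihbp1. It was 1.01 (0.614 to 1.66) in the Ccdc85a cluster and 0.666 (0.379 to 1.14) in the Hdac9 cluster.

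In endothelial-like cells the 11 neutrophil markers summed to 132 CPM in PBS, with Ly6g at 0, and 305 in CFA, and the 8 macrophage markers to 17.2, with Adgre1 at 0, and 36.4. The 6 erythroid markers summed to 425 and 137 CPM. Neutrophil RNA in proportion to S100a8 and S100a9 would have brought 0.545 CPM of Slfn4 to CFA endothelial-like cells, where 16.7 was measured. Without cells that held at least 2 macrophage or 3 neutrophil markers (20 and 172), the ratios were 5.95 for Slfn4, 3.63 for Slfn8 and 2.65 for Slfn9. How much carried RNA these values hold was not tested.

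**Figure D4:**
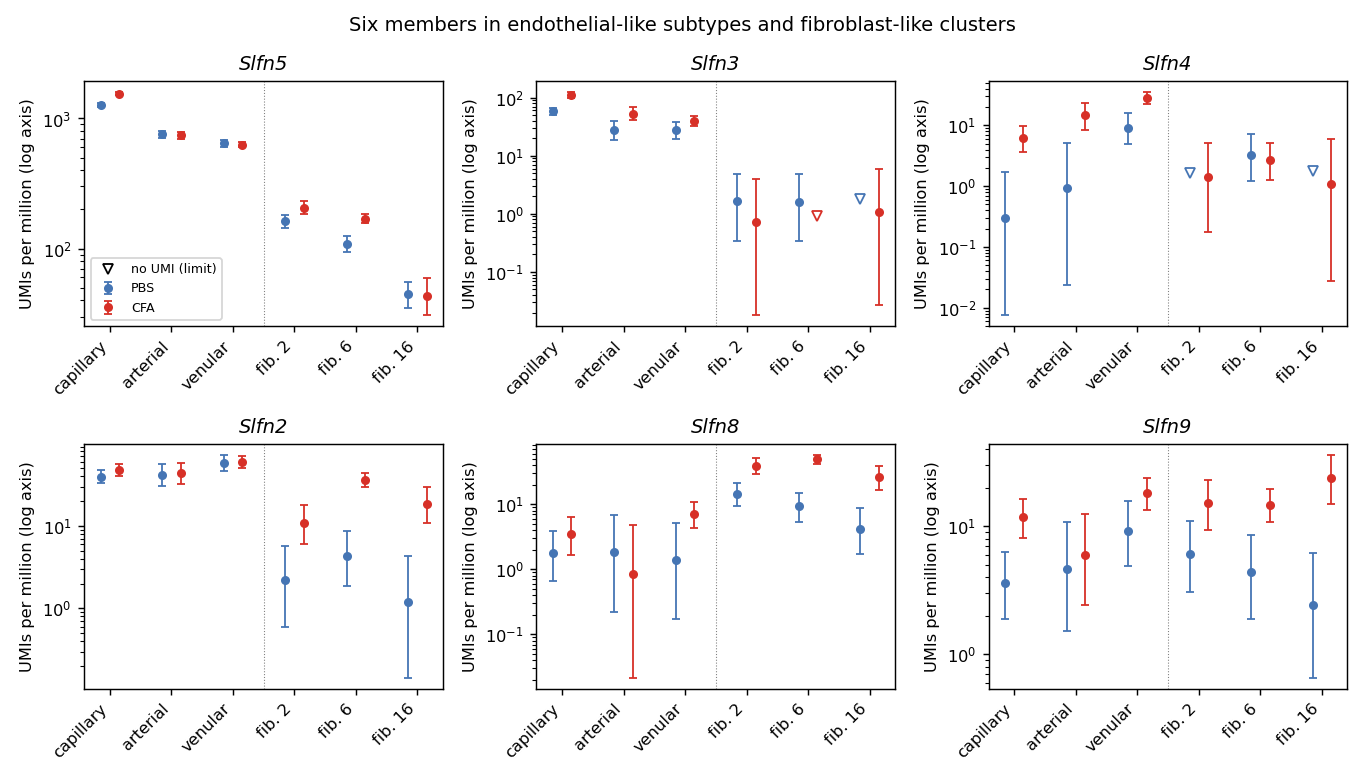
CPM (vertical log axis) of Slfn2, Slfn3, Slfn4, Slfn5, Slfn8 and Slfn9 in PBS and CFA for endothelial-like segments and fibroblast-like clusters, with 95% counting intervals and open triangles for the limit of 3 counts where no UMI was seen. Slfn2, Slfn8 and Slfn9 are higher in CFA in all 3 fibroblast-like clusters, and Slfn5 is highest in capillary-like cells in both libraries.

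In neutrophil-like cells the myeloid members were higher in CFA by less than 2-fold: Slfn1 at 121 and 239.8 CPM (1.98, 1.59 to 2.49), Slfn2 at 210.3 and 394 (1.87, 1.58 to 2.22) and Slfn4 at 253 and 405 (1.60, 1.37 to 1.88). Slfn5 was at 53.2 and 90.7 CPM (1.70, 1.22 to 2.44). Slfn8 was the member called, at 9.32 and 29.6 CPM from 7 and 90 UMIs, a ratio of 3.17 (1.48 to 8.12). Slfn3 (17.3 and 11.2 CPM) and Slfn9 (12.0 and 7.88) were lower in CFA with intervals of the ratio that hold 1. The median ratio over all genes here was 0.920, a shift of -0.12 on the log2 scale, and with ratios scaled to that median Slfn1, Slfn2 and Slfn8 were at least 2-fold higher.

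The 8 macrophage markers summed to 117 CPM in PBS neutrophil-like cells and 643 in CFA, with none at 0. Macrophage RNA in proportion to C1qa, C1qb and C1qc would have brought 0.374 CPM of Slfn8 and 2.06 of Slfn5 in PBS, and 5.39 and 18.2 in CFA. Its part in the measured levels was not tested.

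The class differed in maturity between libraries, with 16 of 71 mature cells in PBS and 179 of 350 in CFA, and the members differed by maturity. In CFA, mature against immature neutrophil-like cells had Slfn1 at 612 and 136 CPM, Slfn2 at 716 and 304, Slfn4 at 734 and 314, Slfn5 at 236 and 50, and Slfn8 at 82.7 and 14.7. All 5 were higher in mature cells. Within immature cells (55 and 171) the CFA to PBS ratios were 1.74 for Slfn1 (1.29 to 2.38), 1.67 for Slfn2 (1.38 to 2.04) and 1.52 for Slfn4 (1.27 to 1.84), so these members were also higher in CFA at that stage. Within mature cells, only 16 in PBS, Slfn1 stood at 456 and 612 CPM, Slfn2 at 432 and 716, and Slfn4 at 619 and 734. Slfn8, the member called in the class, had a ratio of 3.27 (1.03 to 16.6) in immature cells, from 3 and 35 UMIs. In mature cells it was 1.77 (0.653 to 6.72), from 4 and 55 UMIs. The class ratios include the makeup by maturity. With no hemoglobin limit the class ratios were 3.55 for Slfn1, 3.16 for Slfn2 and 3.00 for Slfn4, and that of Slfn5 was 0.936, in the other direction.

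B cell-like cells went the other way. There 2 of 3 counted members were at least 2-fold lower in CFA, where 5.41% of all genes were, and 0 were higher (3.27%). The count was 0 when the Schlafen genes were kept in for clustering, where the Slfn2 ratio was 0.514, and 1 at 1000 genes per cell, at 50 UMIs and without the highest Scrublet scores. Slfn2 stood at 112 CPM (116 UMIs) in PBS and 45.7 (36 UMIs) in CFA, a ratio of 0.407 (0.272 to 0.597). The early stage, with surrogate light chain genes (95 and 85 cells), had 32.4 and 7.91 CPM from 19 and 4 UMIs (0.244, 0.0605 to 0.735). The later stage (113 and 63 cells) had 217 and 113 CPM (0.523, 0.339 to 0.786), short of the 2-fold call. Both stages were lower in CFA, and the early one lay below the later in each library. The class ratio includes the makeup of stages, which differed between libraries. Slfn5 stood at 31.9 and 10.1 CPM (0.318, 0.127 to 0.703), but its 33 PBS UMIs came from 8 cells, 15 of them from 1. In the early stage it was at 5.11 and 7.91 CPM, from 3 and 4 UMIs. In the later stage it was at 67.0 and 14.1 CPM, from 30 and 4 UMIs. Slfn8 stood at 23.2 and 19.0 CPM (0.820, 0.400 to 1.63).

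In erythroid-like cells (94 and 71), which make red cells, 2 of 3 counted members were at least 2-fold higher in CFA, where 13.6% of all genes were, and 1 was lower, where 8.57% were. Slfn2 was at 17.1 and 60.1 CPM (3.51, 2.31 to 5.32), with 21 of its 51 PBS UMIs from 1 cell. Slfn5 was at 1.68 and 30.7 CPM, from 5 and 24 UMIs (18.3, 6.84 to 61.4). Slfn3 was at 6.38 and 2.56 CPM, from 19 and 2 UMIs (0.401, 0.0453 to 1.66). The median ratio over all genes was 1.11, a shift of 0.15 on the log2 scale. The median depth was 18038 UMIs in PBS and 2427 in CFA, and over the same cells the 8 macrophage markers summed to 7.39 and 329 CPM (Adgre1 and Ms4a7 at 0 in PBS, Folr2 in CFA), the 7 monocyte markers to 61.8 and 319, and the 10 T or NK cell markers to 1.68 and 316 (Cd3e and Cd3d at 0 in both). Macrophage or neutrophil markers put 9 of 94 PBS and 37 of 71 CFA cells past the limit used above, and their part in these values was not tested. With no hemoglobin limit Slfn5 and Slfn3 turned round, as given with the alternatives.

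In mural-like cells Slfn5 was lower in CFA, 197 CPM (178 to 217) and 149.7 (134 to 167), a ratio of 0.761 (0.656 to 0.882). Slfn2 (13.9 and 10.7 CPM) and Slfn3 (5.46 and 5.33) had intervals of the ratio that hold 1. Slfn4 had 1 UMI in PBS and 16 in CFA, under the minimum for counting. The 11 neutrophil markers summed to 98.4 CPM in PBS mural-like cells, with Csf3r, Cxcr2 and Ly6g at 0, and to 1692 in CFA. Neutrophil RNA in proportion to S100a8 and S100a9 would have brought 3.41 CPM of Slfn4 in CFA, where 7.11 was measured. The part of such RNA was not tested.

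In tenocyte-like cells Slfn8 was called from few UMIs, 8 in PBS and 16 in CFA, at 3.88 and 12.0 CPM (3.08, 1.25 to 8.33). Slfn5 stood at 24.2 and 44.1 CPM (1.82, 1.23 to 2.71) and Slfn9 at 8.24 and 9.71 (1.18, 0.527 to 2.58). Slfn5 stood at 26.6 and 27.5 CPM in Schwann-like cells, the glia of nerves, and at 8.04 and 7.35 in chondrocyte-like cells, where 1 of the 2 clusters had 27 PBS cells and 0 CFA cells. Satellite cell-like cells, the muscle stem cells, had no UMI of any member in 56 PBS cells, which allows up to 7.89 CPM for each. Their 89 CFA cells had 18 Slfn8 UMIs in 14 cells, or 28.6 CPM. That was 3.63 times the limit of 3 counts in PBS, and the counting interval of the ratio begins at 2.66. Slfn1, Slfn4 and Slfn9 had 7 UMIs each in the CFA cells, and Slfn3 had 0.

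Genes of the interferon pathway, in which several Schlafen genes are targets, were compared by the same call. Of 30 interferon-stimulated genes other than Schlafens, 28 are in the tables (Mx1 and Mx2 are not). In fibroblast-like cells 23 of 28 were at least 2-fold higher in CFA (8.54% of all genes). The list's median ratio there was 4.30, near the members' 4.15. In endothelial-like cells 6 of 28 were at least 2-fold higher (5.17% of all genes), namely Ifit2, Zbp1, Cxcl9, Gbp2, Gbp3 and Tap1. The median there was 1.27 against the members' 2.09. None of the list was at least 2-fold lower in either class, where 5.06% and 5.85% of all genes were. The 3 with the most UMIs in endothelial-like cells were Iigp1, an immunity-related GTPase, at 1667 and 2127 CPM (1.28, 1.24 to 1.31), Bst2, which tethers viruses, at 467 and 519.5 (1.11, 1.06 to 1.17), and Gbp2, a guanylate-binding protein, at 163 and 529 (3.23, 3.01 to 3.48).

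The other classes, each with its share over all genes beside it, gave 14 of 28 higher in neutrophil-like cells (8.97%), 17 of 22 in Schwann-like (8.32%), 17 of 18 in chondrocyte-like (4.59%), 17 of 19 in satellite cell-like (8.86%), 14 of 26 in tenocyte-like (4.15%), 11 of 27 in erythroid-like (13.6%), 7 of 28 in mural-like (3.69%) and 2 of 16 in B cell-like cells (3.27%). In tenocyte-like cells 2 were at least 2-fold lower (6.01% of all genes). In mural-like and B cell-like cells 1 each was (5.14% and 5.41%). The 2 of 26 in tenocyte-like and the 1 of 16 in B cell-like cells are near those shares. Schwann-like and chondrocyte-like cells thus had most of the list higher while their only counted member, Slfn5, had a ratio of 1.03 (0.670 to 1.60) and 0.915 (0.404 to 2.07). The other members had under 20 UMIs there, so Slfn5 does not stand for them. Schwann-like cells had 1 and 12 UMIs of Slfn8, 2 and 8 of Slfn2, 1 and 7 of Slfn4 and 0 and 7 of Slfn9. Slfn3 went the other way, with 4 and 2. Chondrocyte-like cells had 0 and 12 UMIs of Slfn2, 0 and 9 of Slfn8 and 0 and 7 of Slfn9. Slfn4 went the other way, with 10 and 0. Slfn1 had 0 and 1 in each class. In Schwann-like cells the Slfn5 ratio was 1.84 with log-normalized clustering without integration and 0.774 without cells holding myeloid markers. Of 14 interferon receptors and signal transducers, 4 were at least 2-fold higher in fibroblast-like cells, 2 in endothelial-like cells, 5 in neutrophil-like, 8 in erythroid-like, 4 of 13 in chondrocyte-like, 6 of 12 in satellite cell-like, 2 in tenocyte-like, 1 in mural-like, 1 in Schwann-like and 0 in B cell-like cells, where Stat2 and Socs1 were lower. The shares over all genes are those given with the first list, and the 1 of 14 in Schwann-like cells is near its 8.32%. The 3 with the most UMIs in endothelial-like cells were Irf1 at 771 and 571 CPM (0.741, 0.709 to 0.773), Jak1 at 627 and 583 (0.930, 0.889 to 0.973) and Socs3, a feedback inhibitor, at 189 and 228 (1.2, 1.11 to 1.30).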

How the data were processed

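Single-cell RNA data of TMJ tissue (PBS and CFA, 1 library each) were used as the matrices of UMI counts that the authors deposited. The counts are whole numbers per gene and barcode and are not normalized. Per the submitters' processing notes, reads were processed with Cell Ranger 7.0.1 on mm10 (GRCm38). The submitters' labels and the methods name different enzymes, so the digestion is not described here. Counting with or without strand is not given in the sources used here, so the split of reads between Slfn5 and its antisense gene Slfn5os, which has its own row, is uncertain. Total UMIs were 51146169 in PBS and 53517206 in CFA over all barcodes, and 27201994 and 44432717 over kept cells.

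Cells were kept at 500 or more genes, at most 10% mitochondrial and at most 1% hemoglobin UMIs. Each library was normalized with SCTransform (sctransform 0.4.2), integrated on 3000 genes with the Schlafen genes left out, reduced to 200 principal components and clustered at resolution 1.5 (Seurat 5.3.0, R 4.3.3). A cluster was named where at least 3 markers of a class were detected and its depth and leading genes allowed it, and 4 clusters stayed unnamed. Scrublet (scanpy 1.11.5) marked 21 PBS and 2 CFA cells, too few to have worked, so no doublets were removed and an alternative without the highest 5% of scores was run. Members were summed per class as CPM with exact Poisson intervals. Ratios have exact conditional intervals for a pair of Poisson sums. Shares have Clopper-Pearson intervals and were also taken after thinning each cell to 1000 UMIs, leaving out shallower cells. A sum of 0 was put at a limit of 3 counts per library. UMIs are molecules, so intervals cover counting error only. Python 3.11.15 with numpy 2.4.6, scipy 1.17.1, pandas 2.3.3 and matplotlib 3.10.9 was used.

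The named genes are every member in every class, the 3 genes of highest likeness per member and, of fixed interferon lists, the 3 with the most UMIs in the largest class. Members and lists were chosen with earlier results of these data known. Some genes of the interferon lists are counted and not reported here by name. On simulated counts for endothelial-like cells (12678 genes), 100 of 100 genes made 4-fold higher and 100 of 100 made 4-fold lower were called. Of 12478 unchanged genes, 69 were called higher. The changed genes were drawn from those with at least 100 UMIs over both libraries, and the counts were drawn with counting error only. The simulation therefore gives no error rate for members with fewer UMIs or for differences between libraries. Gene positions and transcripts are from GENCODE M21 and promoters from RefSeq. The alternatives changed the limits on cells, the clustering, the scaling, the UMI minimum, the fold, the thinning and the motif window. A further 3 were chosen after seeing the data: the low-UMI cluster counted as endothelial-like, cells with myeloid markers left out, and the cell with most UMIs of a member left out.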

Additional observations from a re-analysis of the deposited data

Results flagged for a closer look

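Slfn2 and Slfn5 had CFA to PBS ratios on opposite sides of the 2-fold limits in different classes, and these differences between classes were not tested, since each class has 1 library per condition. Slfn2 had a ratio of 10.2 in fibroblast-like and 3.51 in erythroid-like cells and 0.407 in B cell-like cells. Slfn5 had a ratio of 18.3 in erythroid-like cells, from 5 and 24 UMIs, and 0.318 in B cell-like cells, from 33 and 8.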

How the results depend on the processing

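In fibroblast-like cells Slfn2, Slfn8 and Slfn9 were called higher under every alternative run, and the count was 3 except with no UMI minimum, where Slfn1 made it 4; their ratios ran from 7.66 to 11.7, 4.48 to 5.64 and 2.88 to 4.51. In endothelial-like cells the count was 2 to 4: Slfn8 was lost with no hemoglobin limit (1.96) and at 50 UMIs, and Slfn3 was added at 1.5-fold. The Slfn4 ratio there ran from 3.41 to 8.87 and the Slfn9 ratio from 2.38 to 3.47.

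The counts elsewhere changed as follows, and the cause was not tested. The share over all genes changes with the setting too and is not given beside them. These counts therefore show only which calls moved. With no hemoglobin limit, 4 members were higher in neutrophil-like, 2 in tenocyte-like and 1 in mural-like cells, 1 was lower in chondrocyte-like and 0 in erythroid-like cells, and in erythroid-like cells the ratio was 1.45 for Slfn3 and 0.708 for Slfn5, the other way round. In neutrophil-like cells 2 were higher at a mitochondrial limit of 20%, with the Schlafen genes kept in, by the mean over cells and without the highest Scrublet scores, 3 with scaling by the median ratio and without the cell with most UMIs, and 5 at 1.5-fold; 1 was lower by the mean over cells and 2 at 1.5-fold. In tenocyte-like cells 2 were higher at 1000 genes, by the mean over cells, at 1.5-fold and without the highest Scrublet scores, 3 without the cell with most UMIs, and 0 at 50 UMIs or without cells holding myeloid markers. In B cell-like cells 1 was lower (Slfn2) at 1000 genes, at 50 UMIs and without the highest Scrublet scores and 0 with the Schlafen genes kept in (Slfn2 at 0.514), and 1 was higher (Slfn9) with log-normalized clustering. In erythroid-like cells 1 was higher at 50 UMIs and without the highest Scrublet scores, and 0 were lower at 50 UMIs. Slfn2 made it 1 lower in mural-like cells with the Schlafen genes kept in, without the highest Scrublet scores or without cells holding myeloid markers, and at resolution 0.8 there were 2 higher in chondrocyte-like cells. With no UMI minimum, 5 were higher in erythroid-like, 4 in mural-like, 3 in chondrocyte-like, 3 in Schwann-like and 1 in B cell-like cells, and 1 each was lower in fibroblast-like, chondrocyte-like, Schwann-like and tenocyte-like cells. Some of these calls rest on 1 PBS UMI or none. Examples are Slfn1 (0 and 12 UMIs) and Slfn4 (1 and 16) in mural-like cells and Slfn9 (1 and 13) in B cell-like cells.

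With 1 or 50 CPM added before the log, Zbp1 and Irf2bp2 were again the genes most like Slfn8 and Slfn9, but their lists of 3 shared no gene, and the first gene changed under 1 or both settings for Slfn1 (Cd300lf), Slfn2 (Lcp1), Slfn3 (Arhgap27), Slfn4 (Siglece) and Slfn5 (Grk5 or Adam15). In the 250 bases before the start alone, GAAANNGAA was held by 7.13% of promoters, and the matches of Slfn5, Slfn8 and Slfn9 all lie there. No paired analysis was possible because each condition has 1 library. Depth limits Slfn8, Slfn9, Slfn1 and Slfn4 outside the classes named for them, where a class often held under 20 UMIs. Read sharing among Slfn8, Slfn9 and Slfn10-ps, and between Slfn3 and Slfn4, was not tested on reads.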

Other observations

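Slfn14, a Schlafen gene beside Slfn3 and outside the list followed here, had 1654 UMIs in PBS and 1056 in CFA over all barcodes but 26 and 4 over kept cells, so nearly all of its UMIs lay in barcodes that the limits left out. The antisense gene Slfn5os, which overlaps Slfn5, had 91 UMIs in PBS and 68 in CFA over kept cells, and the Schlafen-like gene Slfnl1 had 1 and 0.

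The unnamed cluster with few UMIs that is led by capillary genes such as Gpihbp1 and Fabp4 (48 cells in PBS and 197 in CFA) had Slfn5 at 290.3 and 749 CPM. Lymphatic endothelial-like cells, with 18 and 12 cells, had Slfn5 at 148 and 291 CPM. The 35 and 28 osteoblast or osteocyte-like cells had Slfn5 at 86.0 and 43.3 CPM, and the 31 and 6 lining fibroblast-like cells at 49.8 and 66.5.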
